A study of Homo sapiens with 6 samples.

Results

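Genes of the BCL2 protein family, which sets the threshold for apoptosis at the outer mitochondrial membrane, were examined in SUM159 cells that overexpress POGK and in cells that carry the empty vector. The 10 genes were chosen by name, and each matched exactly 1 row among the 18398 genes of the deposited count table. They were 4 pro-survival genes (BCL2, BCL2L1, MCL1 and BCL2L2), the 2 effector genes BAX and BAK1, and 4 BH3-only genes (BCL2L11, BID, BBC3 and PMAIP1). All 10 passed the filter on low counts that left 15889 genes to be tested.

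SUM159 is an established cell line from a human breast carcinoma, of the triple-negative and mesenchymal kind. The control cells (3 libraries) carried the empty pLVX lentiviral vector, and the POGK cells (3 libraries) were stable derivatives in which the same vector carried POGK, a KRAB-domain protein derived from a pogo-like transposon. Both were grown with serum, insulin and hydrocortisone, so the hormone supplements do not separate the groups. Whether the stable cells were 1 clone or a pool, and which promoter drove POGK, is not stated. The study set out to find genes regulated by POGK. The labels do not say whether the replicates were separate cultures, and each p-value therefore reflects library-to-library spread alone, possibly technical.

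Total counts ran from 27645789 to 33689230 per library. POGK rose 11.1-fold, with counts of 1555 to 2423 in the control libraries and 23128 to 28258 in the POGK libraries. The summed level of the 7 mesenchymal markers was 9529 to 11932 CPM (counts scaled to library size) in control cells. In POGK cells it was 5664 to 5723 CPM. VIM and FN1, the highest of the 7, fell, as did CD44, ZEB1 and SNAI2, while AXL and CDH2 rose. The sum of 6 luminal epithelial and hormone receptor markers was 512 to 578 CPM and 573 to 581 CPM, in which KRT18 (1.64-fold) and ERBB2 (1.17-fold) rose, KRT8 and GATA3 fell, and ESR1 and EPCAM were at or below 0.23 CPM on average in both groups. The sum of 4 basal epithelial markers was 233 to 288 CPM and 201 to 217 CPM, in which KRT5 fell 15.9-fold from a low level, KRT17 fell 6.70-fold and TP63 fell 2.63-fold, while LAMB3 did not pass. Leukocyte and endothelial markers (2 of each) summed to at most 2.96 and 7.31 CPM in any library. The markers PGR, CDH1 and KRT14 are not analysed here. The part of these differences in the results below was not tested. Control libraries varied more than POGK libraries: the median coefficient of variation over all genes tested was 13.5% in control cells and 4.44% in POGK cells, and over the 10 family genes it was 9.54% and 2.51%.

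As background, pro-survival proteins of this family hold the effectors BAX and BAK in check. BH3-only proteins, which are made or activated under stress, bind the pro-survival proteins or the effectors and tip the balance, and activated BAX and BAK then open the outer membrane and release cytochrome c, which starts the caspase cascade. Breast cancer cells are known to depend on MCL1 and BCL-XL, the product of BCL2L1, to differing degrees.

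In POGK cells all 4 pro-survival genes fell, both effector genes rose, and 3 of 4 BH3-only genes fell. The extremes were BBC3, the gene of PUMA, which fell 4.01-fold, and BAX, which rose 1.46-fold. BCL2L1 fell 2.08-fold, and MCL1 fell to 66.5% of its control level. Thus 9 of 10 genes passed the edgeR test at an adjusted p below 0.05, beside 66.0% of all genes tested, 2 of them higher (32.7% of all genes were higher) and 7 lower (33.3%). The median absolute log2 fold change of the 10 genes was 0.53, and that of all genes tested was 0.52, so their typical change was of the size found across the transcriptome. Of the 10 genes, 2 passed this test with a change of at least 2-fold, against 22.3% of all genes tested. The 6 library values did not overlap between the groups for 8 of 10 genes, against 73.7% of all genes.

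**Figure D1:**
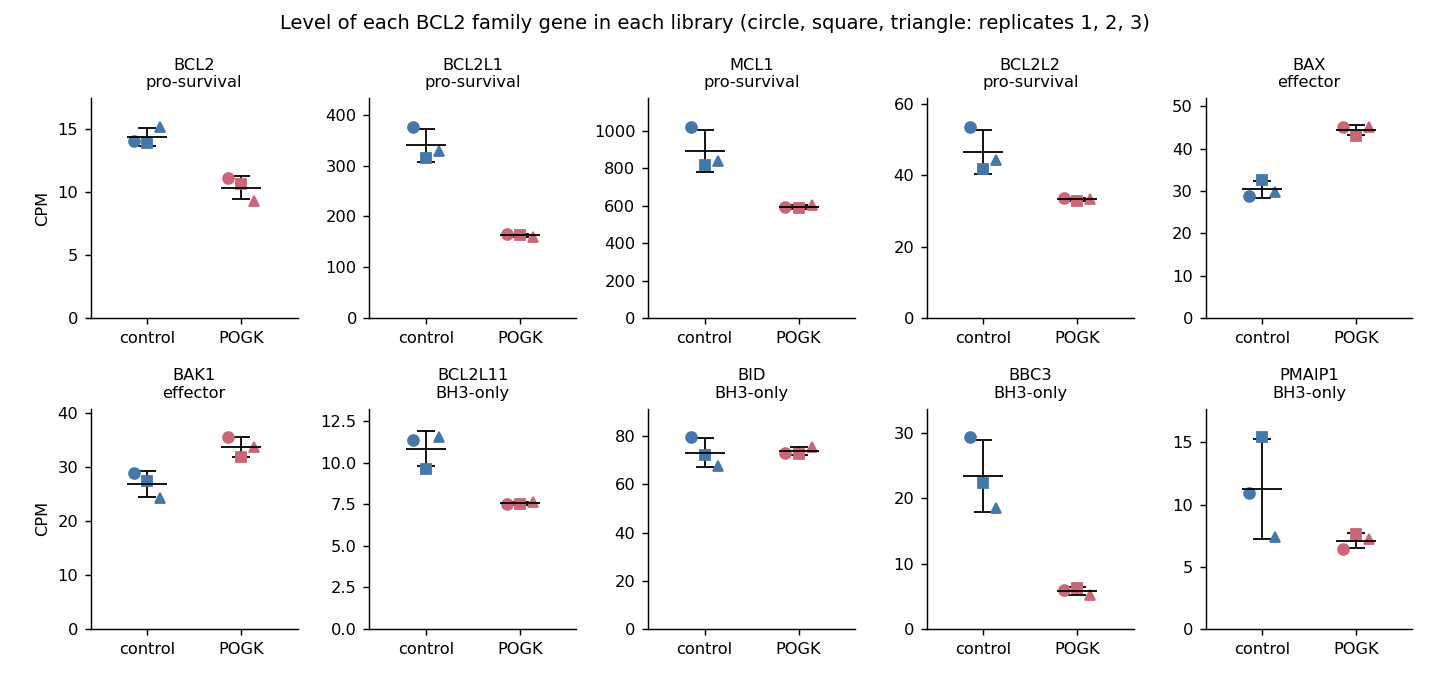
Levels of the 10 genes in CPM on a linear axis from 0, with 1 symbol per library and a horizontal line and bar for the mean and SD of 3 libraries. Control and POGK libraries are apart for every gene except BID and PMAIP1, and the POGK libraries lie closer together than the control libraries for 9 genes, BCL2 being the exception.

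The effectors were the genes that rose. BAX (hg38 chromosome 19, 48954815 to 48961798, plus strand) had 28.8, 32.5 and 29.8 CPM in control replicates 1 to 3 and 45.2, 43.0 and 45.1 CPM in POGK replicates 1 to 3. The lowest POGK library lay above the highest control library. The edgeR estimate was 0.55 (log2), standard error 0.08 (edgeR adjusted p = 3.16e-04). BAK1 (chromosome 6, 33572547 to 33580293, minus strand), whose product sits in the outer mitochondrial membrane also in unstressed cells, had 28.9, 27.5 and 24.3 CPM in control cells and 35.5, 31.9 and 33.7 CPM in POGK cells. Its groups were also apart, by a smaller margin. This is a log2 fold change of 0.33, standard error 0.09 (edgeR adjusted p = 0.0122), and without POGK replicate 1, its highest library, it did not pass, at 0.29 and an adjusted p of 0.0620.

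The 250 bases before the RefSeq start of BAX (GRCh38.p14, chr19:48954625-48954874, plus strand) are shown because BAX rose most, and those of BBC3 (chr19:47232668-47232917, minus strand) because it fell most. BCL2L11 (chr2:111120664-111120913, plus strand) is shown for a match to the motif of FOXO factors, whose genes are described further on. Capitals mark matches on either strand to CACGTG, the E-box bound by factors such as MYC with MAX, to TGANTCA, the AP-1 motif, and to TGTTTAC, the FOXO motif. Matches to the 3 motifs do not overlap here.
BAX: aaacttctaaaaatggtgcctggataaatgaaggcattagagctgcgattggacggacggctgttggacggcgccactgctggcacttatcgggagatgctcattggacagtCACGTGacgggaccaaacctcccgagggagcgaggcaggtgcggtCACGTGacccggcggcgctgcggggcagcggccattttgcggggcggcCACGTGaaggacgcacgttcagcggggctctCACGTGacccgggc
BBC3: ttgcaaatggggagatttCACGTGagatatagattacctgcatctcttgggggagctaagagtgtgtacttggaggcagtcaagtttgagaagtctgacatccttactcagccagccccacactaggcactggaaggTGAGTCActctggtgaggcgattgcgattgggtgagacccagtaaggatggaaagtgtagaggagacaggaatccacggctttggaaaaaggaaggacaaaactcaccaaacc
BCL2L11: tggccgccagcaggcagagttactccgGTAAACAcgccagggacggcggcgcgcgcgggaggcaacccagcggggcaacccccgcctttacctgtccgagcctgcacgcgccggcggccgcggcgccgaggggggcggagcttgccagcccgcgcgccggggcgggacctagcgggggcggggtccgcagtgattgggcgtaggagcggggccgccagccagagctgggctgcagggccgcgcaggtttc

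The BAX window held CACGTG 4 times, beginning 138, 93, 45 and 14 bases before the start. Of 35116 RefSeq windows of this length, 6.34% held the E-box at least once and 5 windows held it 4 times or more. The BBC3 window held CACGTG once, beginning 232 bases before the start, and the AP-1 motif once, as TGAGTCA at 113 bases. The AP-1 motif occurred in 6.57% of all windows. In BCL2L11 the FOXO motif lay on the other strand, as GTAAACA at 223 bases before the start, and 2.98% of all windows held it. This window was chosen for its match, so the match is not a finding. None of the other family windows, 13 in all with this one, held the FOXO motif, and the BBC3 window also lacked it. A match describes the letters of the window, and no binding was measured. Windows were found for 8 of the 10 genes, all but MCL1 and BCL2L2, and among the other windows an E-box occurred once for BID, at 1 site that lies in 2 overlapping windows of the 5 listed.

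The pro-survival genes fell together. MCL1 (chromosome 1, 150560895 to 150579738, minus strand) encodes a short-lived protein. It had 1021, 819 and 836 CPM in control cells and 591, 585 and 603 CPM in POGK cells. Every POGK library was below every control library, and control replicate 1 was the highest. On the log2 scale the difference was -0.59, standard error 0.10 (edgeR adjusted p = 7.29e-04).

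BCL2L1 (chromosome 20, 31664452 to 31723989, minus strand) encodes BCL-XL and, by another splice site, the shorter pro-apoptotic BCL-XS, and counts per gene do not separate them. Its levels were 376, 315 and 329 CPM in control cells and 166, 163 and 160.5 CPM in POGK cells. The groups were far apart, and the POGK libraries spread by only 1.65% of their mean. The edgeR estimate was -1.06 (log2), standard error 0.08 (edgeR adjusted p = 1.46e-05). Of its exonic bases, 41.3% are shared with the antisense gene ABALON, and the strand setting of the counting is not known. ABALON itself had only 8 to 19 counts per library.

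BCL2 (chromosome 18, 63123346 to 63320128, minus strand), the founding member of the family, was a low-level gene in this line. It had 14.1, 13.9 and 15.2 CPM in control cells and 11.1, 10.7 and 9.31 CPM in POGK cells, without overlap. This is a log2 fold change of -0.47, standard error 0.11 (edgeR adjusted p = 0.00399). With library size alone as scaling it was -0.28 and did not pass, at an adjusted p of 0.0589. With it the median log2 fold change over all genes went from 0.0025 to 0.19, so every direction given here is relative to the TMM scale.

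BCL2L2 (chromosome 14, 23298790 to 23311751, plus strand) encodes BCL-W. It had 53.6, 41.9 and 44.2 CPM in control cells and 33.7, 32.9 and 33.3 CPM in POGK cells, again without overlap. On the log2 scale the difference was -0.48, standard error 0.10 (edgeR adjusted p = 0.0024). BCL2L2 shares 16.8% of its exonic bases with the read-through gene BCL2L2-PABPN1, which had 3 to 11 counts per library, so reads in the shared exons could have been split or left out.

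The BH3-only genes moved unequally. BBC3 (chromosome 19, 47220822 to 47232766, minus strand) encodes PUMA, which binds all main pro-survival proteins and is known to be induced by FOXO3. It had 29.3, 22.4 and 18.5 CPM in control cells and 5.95, 6.30 and 5.19 CPM in POGK cells. The lowest control library held more than 2-fold the highest POGK library. With a log2 fold change of -2.00 and a standard error of 0.17 (edgeR adjusted p = 2.38e-05) it was the most changed of the 10 genes. In bulk RNA, fewer cells with a transcript and less of it per cell cannot be told apart.

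BCL2L11 (chromosome 2, 111119378 to 111168444, plus strand) encodes BIM, a BH3-only protein known to be restrained by ERK signalling and induced by FOXO factors. It had 11.3, 9.64 and 11.5 CPM in control cells and 7.52, 7.49 and 7.65 CPM in POGK cells. The groups did not overlap. It fell 1.43-fold, with a log2 fold change of -0.52 and a standard error of 0.11 (edgeR adjusted p = 0.00312). The antisense gene MIR4435-2HG overlaps 10.8% of its exonic bases and was at 39.9 ± 2.74 CPM in the control and 39.3 ± 1.25 CPM in the POGK libraries (mean ± SD, n = 3 each).

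PMAIP1 (chromosome 18, 59899996 to 59904305, plus strand) encodes NOXA, which binds MCL1 and speeds its degradation. Its levels were 10.9, 15.4 and 7.41 CPM in control cells and 6.43, 7.60 and 7.25 CPM in POGK cells. Control replicate 3 lay within the POGK range and control replicate 2 far above it. The edgeR estimate was -0.67 (log2), standard error 0.23 (edgeR adjusted p = 0.0306). Leaving out 1 library ended the call in 5 of 6 cases and not without control replicate 3, where the value was -0.90 at an adjusted p of 0.00456. Without control replicate 2 the value was -0.36 at an adjusted p of 0.0943, without control replicate 1 it was -0.69 at 0.0644, and without POGK replicate 1, 2 or 3 it was -0.60, -0.72 and -0.67 at 0.0968, 0.0573 and 0.0710. With library size alone it was -0.47 at 0.123. Other stress-responsive genes, chosen after their values were seen, also stood out in control replicate 2: CHAC1 had 0.32, 14.8 and 0.74 CPM in the control libraries and TRIB3 37.1, 110.6 and 37.2 CPM. In the POGK libraries CHAC1 had 3.60, 3.07 and 3.84 CPM and TRIB3 52.2, 52.0 and 53.9 CPM. Neither gene passed (edgeR adjusted p = 0.603 and 0.618). Their part in the PMAIP1 result was not tested.

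BID (chromosome 22, 17734138 to 17774770, minus strand), whose product links death receptors to mitochondria after cleavage by caspase-8, had 79.5, 72.1 and 67.6 CPM in control cells and 73.1, 72.4 and 75.6 CPM in POGK cells. All POGK values lay within the control range. This is a log2 fold change of 0.01, standard error 0.08 (edgeR adjusted p = 0.893). With library size alone it passed, at 0.21 and an adjusted p of 0.0203, which is close to the shift of all genes under that scaling.

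**Figure D2:**
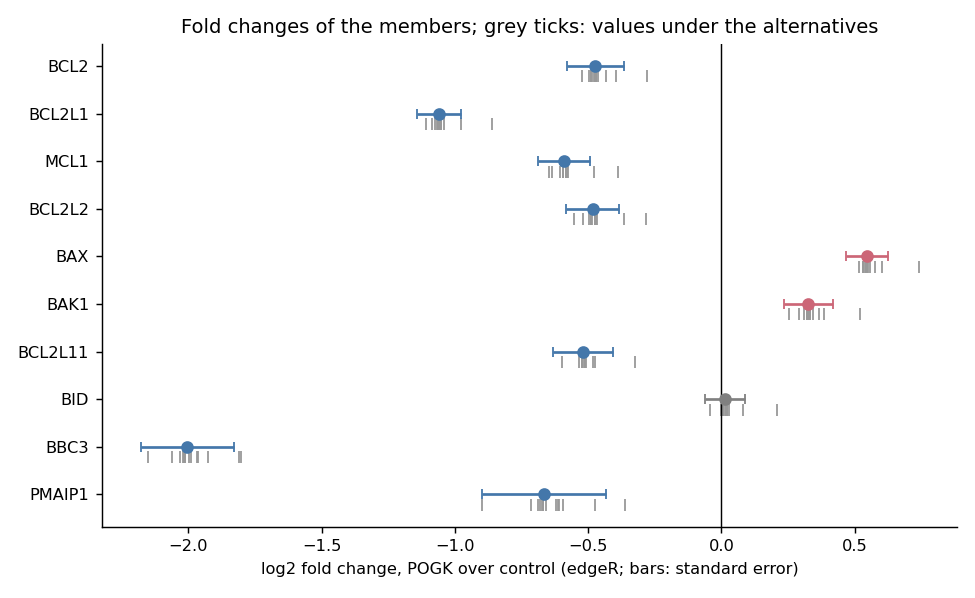
Log2 fold changes (POGK against control) per gene, with bars for the standard error (edgeR), blue for lower, red for higher and grey for not passed; grey ticks give the values under the alternatives. BBC3 and BCL2L1 lie beyond -0.8 in every setting, BAX stays above 0.5, and BID lies on both sides of 0.

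In the authors' deposited table the 10 genes had the same directions, and 9 had an adjusted p-value below 0.05, against 59.0% of all genes there. BBC3 had a log2 fold change of -2.01 with a standard error of 0.24 in the authors' deposited table, and PMAIP1 -0.66 with 0.30.

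Levels of different genes can be compared only per length, here as CPM per kilobase of exon. MCL1 was the most abundant of the 10 in both groups, at 143 ± 18.0 in the control and 95.3 ± 1.45 in the POGK libraries (mean ± SD, n = 3 each). BCL2L1 came next, at 81.0 ± 7.68 and 38.9 ± 0.64. Reads in the 41.3% of its exonic bases shared with ABALON could have been left out, so this level could be too low. Its order beside MCL1, and the ratios and shares with BCL2L1 below, carry the same limit. At the other end stood BCL2L11, at 1.61 ± 0.15 and 1.12 ± 0.01, and BCL2, at 1.14 ± 0.06 and 0.82 ± 0.07. Of the 4 pro-survival genes among the 10, BCL2 was therefore by far the scarcest on this scale.

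Between these ends, the order in control cells was BID, BAK1, BAX, BCL2L2, BBC3 and PMAIP1, from 16.5 ± 1.36 for BID to 5.14 ± 1.84 for PMAIP1. BAK1 and BAX did not differ beyond their spread, nor did BCL2L2 and BBC3, or BBC3 and PMAIP1. In POGK cells BAX followed BCL2L1 at 17.2 ± 0.47, with BID at 16.7 ± 0.38 and overlapping it, and BAK1 followed at 15.2 ± 0.81. BBC3, at 7.35 ± 1.72 in control cells, was at 1.83 ± 0.18 in POGK cells and stood below PMAIP1 at 3.24 ± 0.28. With the length of the longest transcript in place of all exonic bases, BAK1 was at position 7 in place of 4 in control cells, and the order in POGK cells was the same.

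**Figure D3:**
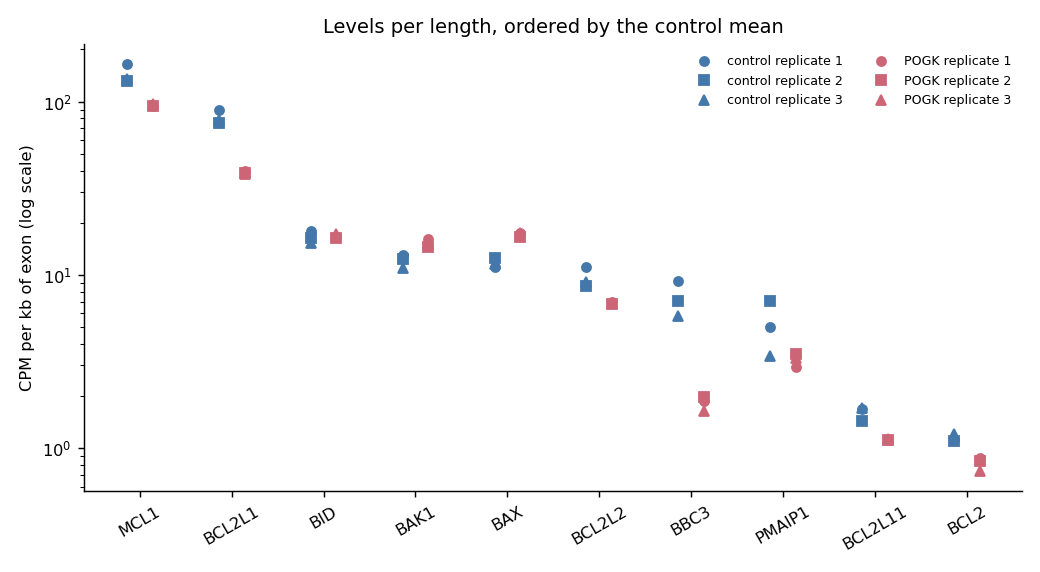
Level per length of each gene in each library, in CPM per kilobase of exon on a log axis, ordered by the control mean. MCL1 and BCL2L1 are above 38 in every library and BCL2L11 and BCL2 below 1.8, while BAX and BAK1 are the genes whose POGK symbols lie above all control symbols.

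Ratios within a library do not depend on the scaling between libraries. MCL1 over BCL2L1 was 1.77 ± 0.06 in the control and 2.45 ± 0.07 in the POGK libraries (mean ± SD, n = 3 each). The control libraries ran from 1.72 to 1.83 and the POGK libraries from 2.40 to 2.53. BAX over BCL2L1 was 0.146 ± 0.022 and 0.442 ± 0.014, with control libraries at 0.124 to 0.168 and POGK libraries at 0.427 to 0.456. BAX over BAK1 went from 0.971 ± 0.105 to 1.13 ± 0.03. MCL1 over PMAIP1 overlapped between the groups, at 30.4 ± 10.7 and 29.5 ± 2.63.

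Summed over the roles, pro-survival genes made up 81.1 ± 1.67% of the 10 genes' level per length in control cells and 71.97 ± 0.25% in POGK cells. The effector share was 8.30 ± 0.84% and 16.4 ± 0.47%, and neither share overlapped between the groups. The BH3-only share was 10.6 ± 1.01% and 11.6 ± 0.24% and did overlap. MCL1 alone was 49.4 ± 1.24% and 48.3 ± 0.45%, overlapping between the groups, whereas BCL2L1 was 27.98 ± 0.73% and 19.7 ± 0.41%. These are shares of transcripts, and protein levels were not measured. The direction of each share follows from the fold changes given above.

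**Figure D4:**
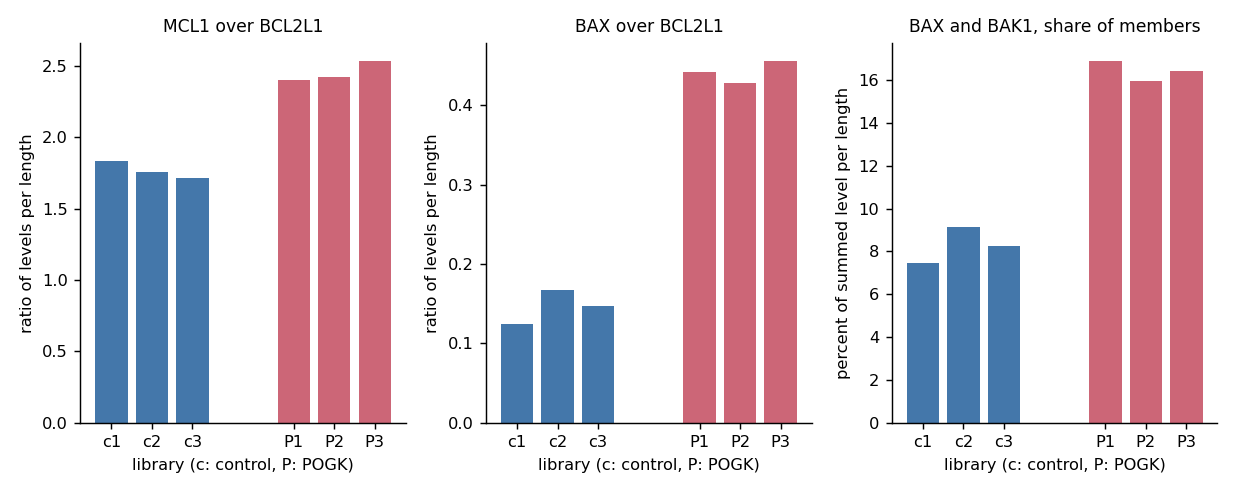
Bars from 0 for each library (c, control; P, POGK; replicates 1 to 3) of MCL1 over BCL2L1, BAX over BCL2L1, and the share of BAX and BAK1 in the summed level per length of the 10 genes, in percent. In each panel the 3 POGK bars are above the 3 control bars, with BAX over BCL2L1 at 0.427 or more against 0.168 or less.

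The profiles most like those of the extremes were sought among 11933 protein-coding genes averaging 1 CPM or more, by the root mean square difference of log2 CPM over the 6 libraries after centring each gene. Closest to BAX were CHTF8, JMJD8 and MAPKAP1, with differences of 0.0135, 0.0221 and 0.0234 where the median gene had 0.343. CHTF8 had 76.8 ± 5.45 CPM in control cells and 112 ± 2.86 CPM in POGK cells. Closest to BBC3 were BTG1, an antiproliferative gene, JAM2, a junctional adhesion gene, and MAPK10, a JNK kinase gene, with 0.0998, 0.105 and 0.110 where the median gene had 1.04. BTG1 fell from 375 ± 88.0 to 90.5 ± 4.99 CPM. Like BBC3, it was highest in control replicate 1, at 476 CPM.

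Other genes of the apoptosis pathway were taken from 7 lists. Over the 74 genes tested in them, 28 rose and 32 fell, or 81.1% called beside 66.0% of all genes, and their median log2 fold change was -0.05, or 0.14 with library size alone. By list, the share called ran from 63.6% (turnover and binding partners) to 92.3% (apoptosome and caspases). Other BCL2 family and BNIP genes were at 66.7%. Over all genes tested, 32.7% were higher and 33.3% lower. The lists were described and not tested as sets.

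The first list held other BCL2 family genes and BNIP genes, which are named for interaction with the family. In it 4 of 9 tested genes fell, BNIP1 (1.27-fold) among them, and 2 rose, BNIP2 (1.18-fold) among them. The median was -0.24, or -0.04 with library size alone. BMF, a BH3-only protein tied to the dynein light chain, had 79.1, 51.2 and 66.3 CPM in control cells and 19.8 to 21.8 CPM in POGK cells. It fell 3.19-fold (edgeR adjusted p = 2.45e-05). BNIP3 and BNIP3L, outer-membrane mitophagy receptors induced by low oxygen, fell 2.86-fold and 2.53-fold, and BCL2L12, which shares 25.9% of its exonic bases with IRF3 on the other strand, rose 1.45-fold. BAD, whose product binds BCL2 and BCL-XL, did not pass, at a log2 fold change of -0.24 (edgeR adjusted p = 0.0627), although it passed without control replicate 2 at -0.27 and without control replicate 3 at -0.29. Without control replicate 1 BAD was at -0.14 (edgeR adjusted p = 0.139), and with library size alone at -0.04. Without control replicate 3, POGK replicate 2 or POGK replicate 3, 1 gene of this list rose. BCL2A1 and HRK were too low to be tested.

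Downstream of the mitochondria, of 13 genes of the apoptosome and caspases, 10 rose and 2 fell, with a median of 0.53. CYCS, the gene of cytochrome c, had 51.1, 85.0 and 52.3 CPM in control cells and 196, 196 and 197 CPM in POGK cells. It rose 3.12-fold (edgeR adjusted p = 8.93e-05), with the reserve that processed pseudogenes of CYCS could take some of its reads. AIFM1, a flavoprotein of the inner mitochondrial membrane, rose 3.05-fold, with control replicate 2 the highest control library for both genes. Among caspases, CASP10 rose 1.77-fold and CASP8, the initiator downstream of death receptors, 1.59-fold. APAF1, the scaffold of the apoptosome, rose 1.45-fold, while CASP9, the caspase it activates, did not pass, at a log2 fold change of 0.13 (edgeR adjusted p = 0.417), or 0.03 without control replicate 1 and 0.24 without control replicate 3, neither of which passed. DIABLO, whose product relieves the block by inhibitor of apoptosis proteins, fell 2.27-fold from 1.97 ± 0.52 CPM, on 27 to 64 counts per library. Other annotated genes of the same strand share 31.5% and 16.4% of its exonic bases, and B3GNT4 on the other strand 13.9%. The DIABLO value is therefore uncertain. HTRA2, a mitochondrial protease gene that shares 27.5% of its exonic bases with LOXL3 on the other strand, had a log2 fold change of -0.20 (edgeR adjusted p = 0.0414). Its call was lost without control replicate 1 (-0.15, edgeR adjusted p = 0.0582), without any 1 POGK replicate (-0.17 to -0.21, adjusted p 0.103 to 0.170) and with library size alone (0.976) or DESeq2 (0.0657), which left 1 gene of this list that fell.

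Inhibitor of apoptosis genes split evenly, with 2 of 5 tested genes higher and 2 lower. XIAP, the direct caspase inhibitor, rose 1.46-fold and BIRC5, the gene of survivin, which also acts in mitosis, rose 1.58-fold. BIRC3 fell from 660 ± 162 to 364 ± 15.4 CPM and BIRC2 fell 1.31-fold. Both encode ubiquitin ligases of NF-kB signalling.

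In the death receptor pathway 5 of 9 tested genes fell and 2 rose. TNFRSF10D, a decoy receptor for TRAIL, fell 4.33-fold, from 128, 83.1 and 91.8 CPM to 21.7, 24.2 and 23.9 CPM (edgeR adjusted p = 1.06e-05). CFLAR, the gene of the caspase-8 inhibitor FLIP, fell 1.78-fold, and TNFRSF10B, a death-inducing TRAIL receptor, fell 1.45-fold. FADD, the adaptor that recruits caspase-8, rose 1.77-fold, and 59.2% of its exonic bases lie opposite an annotated noncoding gene, so its value is uncertain. Only 3 fell when POGK replicate 2 or POGK replicate 3 was left out, and likewise when library size alone set the scale.

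**Figure D5:**
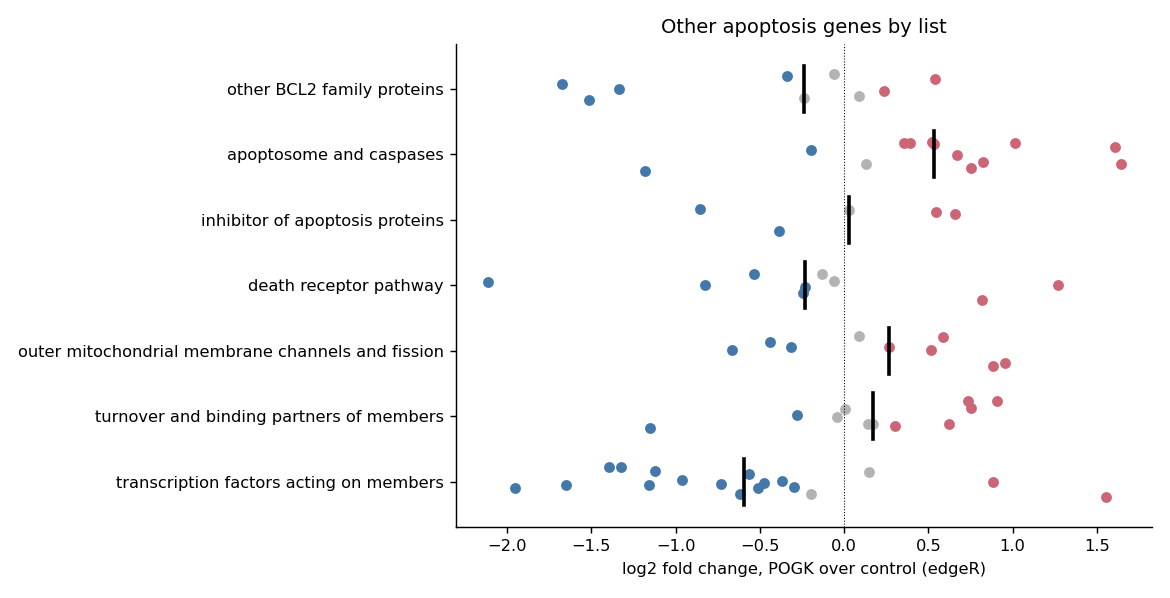
Log2 fold changes of the 74 tested genes in the 7 lists (edgeR), red for higher, blue for lower and grey for not passed, with a black bar at each list's median and random vertical scatter. The apoptosome and caspase genes lie mostly to the right, with a median of 0.53, and the transcription factors mostly to the left, with a median of -0.59.

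Of 18 genes of transcription factors known to act on the family, 14 fell and 2 rose, with a median of -0.59. The FOXO genes fell: FOXO3 had 315, 216 and 243 CPM in control cells and 68.6, 65.0 and 65.8 CPM in POGK cells, a 3.88-fold fall (edgeR adjusted p = 7.93e-06). FOXO1 fell 2.51-fold and FOXO4 1.66-fold. FOXO factors are known as inducers of BCL2L11, BBC3 and BMF, which fell in the same libraries, as did very many genes. ATF4, DDIT3 and ATF3, stress factors tied to BBC3 and PMAIP1, fell 1.94-fold, 2.18-fold and 3.14-fold, with 27.2% of the exonic bases of DDIT3 shared with MARS1 on the other strand. TP63, a transcription factor of basal epithelium, fell 2.63-fold.

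E2F1, a cell cycle factor, rose from 15.2 ± 4.34 to 44.8 ± 2.49 CPM. MYC fell 1.48-fold, and HIF1A, an inducer of BNIP3, fell 1.39-fold.

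Of 11 genes that act on the turnover or binding of the family proteins, 5 rose and 2 fell. With library size alone 7 rose and 1 fell. Without control replicate 3, or without any 1 POGK replicate, 4 rose. DYNLL1, the dynein light chain that holds BIM, had 95.1, 93.0 and 95.2 CPM in control cells and 155, 160 and 158 CPM in POGK cells, a 1.67-fold rise (edgeR adjusted p = 1.81e-05). Its close relative DYNLL2, the light chain that holds BMF, did not pass, at a log2 fold change of 0.01 (edgeR adjusted p = 0.927), although it did with library size alone, at 0.20. USP13, a deubiquitinase of MCL1, rose 1.69-fold, and among the ubiquitin ligases of MCL1 BTRC rose 1.87-fold, FBXW7 1.54-fold and HUWE1 1.23-fold. The HUWE1 call (log2 fold change 0.30, edgeR adjusted p = 0.0305) was lost when any library but control replicate 2 was left out, with values of 0.21 to 0.33 and adjusted p of 0.0568 to 0.106. TPT1, whose product binds MCL1 and BCL-XL, fell from 4396 ± 704 to 1977 ± 28.4 CPM, and it shares 11.1% of its exonic bases with other genes.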

How the data were processed

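RNA from 6 libraries was depleted of ribosomal RNA and sequenced, and reads were aligned to hg38, per the labels' protocols. The submitters' processing notes name featureCounts, STAR and Trimmomatic among the tools. The sources used here give neither the annotation nor the strand setting. The authors deposited raw counts per Ensembl gene, which were used here. Per the file headers, they also deposited a signal column per library (counts over 1 size factor), log2 fold changes and their errors, a test score, and p-values, which enter only sentences naming the authors' deposited table.

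Counts were tested with edgeR 4.0.16 (R 4.3.3; quasi-likelihood, robust, TMM, default low-count filter) over all 15889 genes tested, with Benjamini-Hochberg adjustment at 0.05. Standard errors come from the F statistic. CPM used TMM-scaled library sizes. Exon lengths, positions and overlaps came from GENCODE release 44 on the same build, matching 18264 identifiers. Promoter windows came from RefSeq (GRCh38.p14). Alternatives were DESeq2 1.42.0, limma-voom (limma 3.58.1), other scalings and filters, a replicate block and each library left out. On simulated counts for this comparison (15826 genes), 89 of 100 genes changed 2-fold and 100 of 100 changed 4-fold were recovered, with 11 false calls. The simulation gave both groups the same spread and changed few genes, unlike these data, so its figures need not hold here.

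The members and lists were chosen with earlier results of these data known. Named genes are the members, the 4 with the smallest adjusted p of each list, genes whose role is described, and the 3 most similar profiles; some listed genes are counted but not reported here by name. The mean chi-square per gene between libraries of 1 group (at least 20 counts) was 1.34 to 2.76 for POGK and 25.0 to 55.7 for control. Counting noise alone gives about 1. The POGK libraries came close to that, and whether they are technical repeats cannot be told from the labels. All libraries were kept as separate samples. The test pools the unequal spreads of the groups.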

Additional observations from a re-analysis of the deposited data

How the results depend on the processing

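Over 14 alternatives for each of the 10 family genes, 129 of 140 values kept the direction and the side of the threshold. BCL2L1, MCL1, BCL2L2, BAX, BCL2L11 and BBC3 passed in all 14. BID was -0.00271 with a filter of 1 CPM in 3 libraries and ran from -0.0433 to 0.0800 with 1 library left out. MIR4435-2HG, which did not pass, was 0.18 with library size alone and ran from -0.0694 to 0.0259 with 1 library left out. DYNLL2 was -0.00709 with the 1 CPM filter and ran from -0.0352 to 0.0645 with 1 library left out. The number of family genes that rose was 1 without POGK replicate 1 and otherwise 2 when a library was left out. With the length of the longest transcript, the pro-survival share was 78.8% in control and 69.0% in POGK cells. With library size alone, 6575 genes were higher and 3925 lower, or 62.6% higher in place of 49.6%. The cause of these shifts was not tested.

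Samples with the same replicate number did not deviate together (correlations 0.09, 0.04 and 0.0028 over genes), so the number is not taken as a pairing. With the replicate block, 5136 genes were higher and 5103 lower, and among family genes 2 and 7. HTRA2 did not pass with the block (adjusted p = 0.0778, edgeR) or with no filter on low counts (0.0549). A voom fit with a variance per group, chosen after seeing the data, gave 4824 higher and 4928 lower. Genes near 10 CPM, such as BCL2L11 and PMAIP1, rest on 215 to 483 counts per library. Their standard errors (log2) were 0.11 and 0.23, beside a median of 0.13 over all genes tested.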

Other observations

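Genes of outer-membrane channels and mitochondrial dynamics, which shape the membrane on which BAX and BAK act, rose in 5 of 9 cases and fell in 3. The channel genes moved apart. VDAC2, whose product is known to bind BAK and BAX, had 229, 175 and 183 CPM in control cells and 128, 123 and 119.5 CPM in POGK cells and fell 1.59-fold (edgeR adjusted p = 4.66e-04). VDAC3 rose 1.94-fold, from 66.2, 80.6 and 83.5 CPM to 148, 150 and 149 CPM (edgeR adjusted p = 3.61e-05). VDAC1, the most counted of the 3, did not pass, at a log2 fold change of 0.09 (edgeR adjusted p = 0.291), although it did without control replicate 1, at 0.14, and with library size alone, at 0.29. Without control replicate 3 VDAC1 was at 0.06 (edgeR adjusted p = 0.499). The fusion genes MFN2 and OPA1 rose 1.85-fold and 1.43-fold, and the fission adaptor gene MFF fell 1.35-fold.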
